A study of Rattus norvegicus with 6 samples.

Results

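Metallothioneins and zinc transporters were examined in rat myocardium after ischemia and reperfusion, through 6 genes picked by symbol from the 28293 genes of the deposited table. The 6 genes were the metallothioneins Mt1, Mt2A and Mt3, the zinc-sensing transcription factor Mtf1, the zinc importer Slc39a14 and the zinc exporter Slc30a1. Each symbol named 1 row, and 5 of the 6 genes reached the mean FPKM of 0.5 over all samples that was required for testing. FPKM counts the fragments of a gene scaled to its length in kilobases and to the size of the library.

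Myocardium from 3 sham rats and 3 I/R rats was sequenced as stranded total RNA libraries. All rats were male and wild type (WT), and the labels give no strain or age. In the I/R group the left anterior descending coronary artery was tied for 30 min and reperfused for 6 h, and the labels of the sham rats carry the same times. The labels number the samples of each group 1 to 3 and do not say which region of the heart was taken, so that p-values measure the spread between these samples.

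Metallothioneins are small cysteine-rich proteins that bind zinc and copper and can react with oxidants. Free zinc in the cell is sensed by MTF-1, the product of Mtf1, which binds metal response elements before its target genes, among them the metallothioneins and Slc30a1. ZIP transporters (Slc39a genes) bring zinc into the cytosol and ZnT transporters (Slc30a genes) carry it out of the cell or into organelles, and both families act in the heart.

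The bases before the start sites are shown because MTF-1 acts on metal response elements there. The RefSeq promoter table (GRCr8) had an entry for 5 of the 6 genes, all but Slc39a14. The 250 bases before each start site are printed 5′ to 3′ on the gene's strand. Capitals mark the metal response element core, searched as TGCACNC and TGCGCNC on both strands, where the capitals of a core on the other strand are its reverse complement.
Mt1, chr19:10832976-10833225, minus strand: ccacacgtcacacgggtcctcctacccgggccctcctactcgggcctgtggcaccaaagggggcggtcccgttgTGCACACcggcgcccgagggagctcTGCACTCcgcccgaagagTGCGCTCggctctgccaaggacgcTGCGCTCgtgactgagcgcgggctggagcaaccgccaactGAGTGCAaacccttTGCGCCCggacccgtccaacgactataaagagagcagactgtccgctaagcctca
Mt2A, chr19:10838709-10838958, minus strand: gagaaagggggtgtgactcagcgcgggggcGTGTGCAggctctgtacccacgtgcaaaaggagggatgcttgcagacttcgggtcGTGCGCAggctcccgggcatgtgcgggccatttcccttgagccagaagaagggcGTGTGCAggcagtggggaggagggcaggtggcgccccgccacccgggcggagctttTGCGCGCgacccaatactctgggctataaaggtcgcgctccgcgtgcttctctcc
Mt3, chr19:10856081-10856330, minus strand: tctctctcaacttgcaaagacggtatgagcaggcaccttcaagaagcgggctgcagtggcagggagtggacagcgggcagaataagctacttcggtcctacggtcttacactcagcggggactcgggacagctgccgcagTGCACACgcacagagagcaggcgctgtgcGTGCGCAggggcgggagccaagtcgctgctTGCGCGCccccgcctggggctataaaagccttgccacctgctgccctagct
Slc30a1, chr13:106021769-106022018, plus strand: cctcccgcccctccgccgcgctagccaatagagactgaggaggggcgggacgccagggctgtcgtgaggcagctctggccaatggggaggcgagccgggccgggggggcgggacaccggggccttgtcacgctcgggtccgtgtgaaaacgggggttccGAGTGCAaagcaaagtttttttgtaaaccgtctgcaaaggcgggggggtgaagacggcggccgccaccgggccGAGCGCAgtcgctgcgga
Mtf1, chr5:142346804-142347053, plus strand: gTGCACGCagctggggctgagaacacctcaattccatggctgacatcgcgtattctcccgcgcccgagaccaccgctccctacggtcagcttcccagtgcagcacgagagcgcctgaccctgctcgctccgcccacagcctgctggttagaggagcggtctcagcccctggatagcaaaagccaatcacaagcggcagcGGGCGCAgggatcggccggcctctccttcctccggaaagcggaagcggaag

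Mt1 held 6 cores, which started 176, 151, 133, 109, 69 and 55 bases before the start site. Mt2A held 4 cores, at 220, 165, 111 and 55 bases. Mt3 held 3, and Mtf1 and Slc30a1 held 2 each. Among the 33469 promoters of this length in the table, 20.6% held at least 1 core, 0.0269% as many as Mt1, 0.266% as many as Mt2A, 1.17% as many as Mt3 and 4.9% as many as Mtf1 and Slc30a1. These matches describe the letters of the window and were not measured as binding sites.

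**Figure D1:**
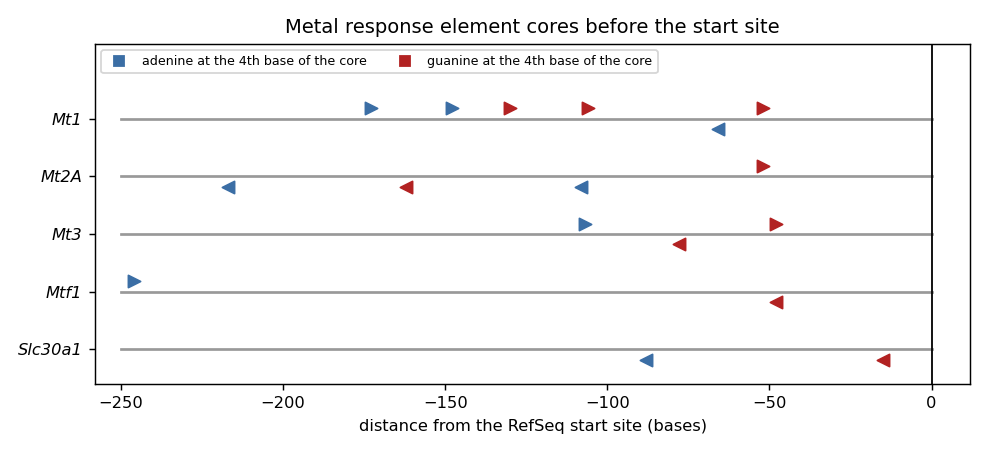
Metal response element cores in the 250 bases before the RefSeq start site of 5 genes, by distance from the start in bases. Triangles above the line are on the gene's strand and those below it on the other strand, and colour gives the 4th base of the core. Mt1 had 6 cores and Mt2A 4, and Mt3 had 3, all in its 110 bases nearest to the start.

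Values in a library were whole multiples of what 1 fragment is worth, which gave totals of 42221073, 49848438 and 47945186 fragments in the sham group and 36848184, 39480833 and 37206448 in the I/R group. The 13 mitochondrially encoded mRNAs took 80.1 to 86.2% of the summed FPKM in the sham group and 61.8 to 71.5% in the I/R group. The 7 cardiomyocyte markers were present in every library, as myocardium should have them, and their summed FPKM was 3465 to 11364 in sham and 23353 to 33681 in I/R. The mean of their log2 levels was 2.30 higher in I/R, and the median log2 fold change of the 10942 genes tested was 0.29. In whole tissue, fewer cells of a type and less RNA per cell cannot be told apart. Each member is therefore also given relative to those references.

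Mt2A and Mt1 were higher in I/R, and Mt3, Slc39a14 and Slc30a1 did not pass the test. Of the 5 members tested, 2 were called higher and 0 lower by limma at an adjusted p under 0.05. Of these 2, Mt1 reached the filter through its I/R values (mean 0.290 FPKM in sham and 1.86 FPKM in I/R). Its call is therefore no independent count. Over all genes tested, 25.5% were called higher and 7.36% lower. At an unadjusted p under 0.05, 3 members were higher and 0 lower, against 33.7% and 11% of all genes. In limma voom on the recovered fragments 3 were called higher and 0 lower, where 26.8% of all genes were called higher. Of these 3, Slc39a14 was not called in limma voom at a filter of 0.25. The 0 for lower calls also held, at an unadjusted p and in limma voom, for the ZIP, ZnT, copper and metal response genes described further on.

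**Figure D2:**
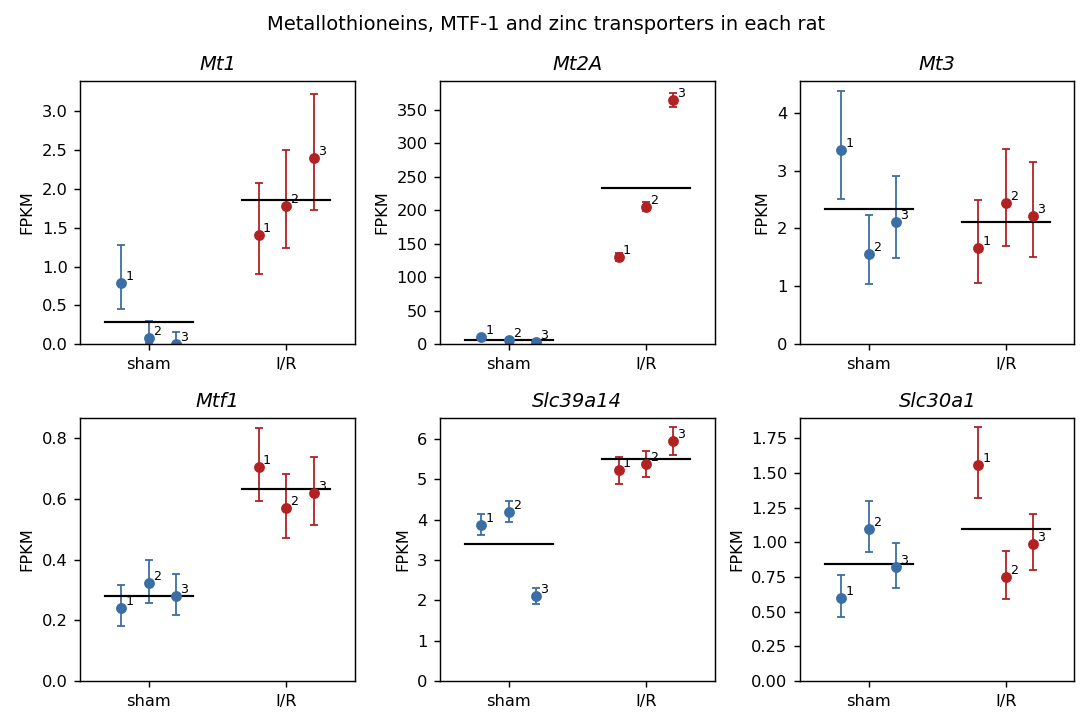
FPKM of the 6 genes in each rat, on a separate linear axis for each gene, with the replicate number beside each point. Bars are 95% exact Poisson intervals of the fragment count and horizontal lines are group means. Mt1, Mt2A, Mtf1 and Slc39a14 did not overlap between sham and I/R, and Mt3 and Slc30a1 did. Of all genes tested, 37.2% did not overlap with I/R higher.

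Mt2A, the most abundant of the 3 metallothioneins in every library, showed the largest difference of the members. The Mt2A row (ENSRNOG00000043098) was at 10.8, 6.46 and 3.47 FPKM in sham replicates 1 to 3 and at 129.9, 205.4 and 364.2 FPKM in I/R replicates 1 to 3. Every I/R rat was far above every sham rat, and the lowest I/R value was 12.0 times the highest sham value. The means were 6.92 ± 3.71 FPKM in sham and 233 ± 120 FPKM in I/R (SD, n = 3), which is a 33.7-fold ratio. On the log2(FPKM + 0.1) scale the fold change was 5.07 (SE 0.45, 95% interval 4.06 to 6.09, limma adjusted p = 0.00043). Only 6 of the 10942 genes tested had a larger positive fold change.

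The level of Mt2A also varied within each group. The highest I/R rat was 2.80 times the lowest, and the coefficient of variation in I/R was 51.3%, where counting of fragments alone gives 1.70%. In sham the coefficient was 53.6%, against 9.0% from counting. Between 1539 and 4209 genes had a higher FPKM than Mt2A in a sham library, and between 112 and 318 in an I/R library.

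The Mt2A difference held against each reference. Relative to the mean of the cardiomyocyte markers it was 2.77 on the log2 scale (exact permutation p = 0.1, two-sided, the smallest that 3 against 3 can give), and relative to the median of all genes tested it was 4.82. Neither comparison had overlapping groups. With the FPKM outside the mitochondrial mRNAs scaled to the same sum in each library (as in TPM), Mt2A was at 60.3, 48.5 and 27.0 in sham and at 465, 856 and 1547 in I/R.

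Markers of other cells were read beside Mt2A. The summed FPKM of the 8 neutrophil and monocyte markers was 52.0 to 67.7 in sham and 74.2 to 140 in I/R, with 2 of the 6 tested called higher and 1 lower. The 2 were S100a8 (log2 fold change 1.60) and S100a9 (1.89), calcium-binding proteins abundant in neutrophils, and the lower one was Ccr2, a chemokine receptor of monocytes (-1.33). S100a8 was not called after centring on the median (limma adjusted p = 0.062). Neither S100a8 nor S100a9 was called after quantile normalization (limma adjusted p = 0.147 and 0.060). Of the cardiomyocyte markers 6 of 7 were called higher, and of the fibroblast markers 2 of 7, Tcf21 (1.42) and Col1a1 (0.91). Over all genes tested, 25.5% were called higher. Neither Tcf21 nor Col1a1 was called after rescaling over genes other than mitochondrial mRNAs. The 4 smooth muscle and 2 red blood cell markers tested had 0 calls in limma, in limma voom and at an unadjusted p under 0.05. The 6 endothelial markers summed to 149 to 196 in sham and 145 to 186 in I/R, with none called by limma (1 higher and 1 lower at an unadjusted p under 0.05, and 1 higher and 0 lower in limma voom). Whether a change in the cells present had a part in the Mt2A difference was not tested.

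Mt1, the other stress-inducible metallothionein, was low in these libraries. The Mt1 row (ENSRNOG00000038047) was at 0.786, 0.0832 and 0 FPKM in sham and at 1.41, 1.79 and 2.40 FPKM in I/R. These values rest on 16, 2 and 0 fragments in sham and on 25, 34 and 43 fragments in I/R. The groups did not overlap (37.2% of all genes tested did not, with I/R higher), although 1 sham rat stood well above the other 2. Mt1 reached the filter through its I/R values, so that its call is no independent count.

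The log2 fold change of Mt1 was 2.92 (SE 0.69, 95% interval 1.39 to 4.46, limma adjusted p = 0.0117). Its size depended on the pseudocount, because of the low sham values, with 1.19 at a pseudocount of 1 and 4.34 at 0.01. Relative to the median of all genes tested Mt1 differed by 2.68 with no overlap (exact permutation p = 0.1). On this scale sham replicate 1 was at -1.52, close to I/R replicate 1 at -1.24. Relative to the cardiomyocyte markers Mt1 differed by 0.63 and the groups overlapped (exact permutation p = 0.4). In limma centred on those markers the call was lost (adjusted p = 0.44). Without sham replicate 2 the fold change was 2.69 and the limma adjusted p was 0.0545. Without sham replicate 1 it was 3.83, and without sham replicate 3 it was 2.25.

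RefSeq lists further Mt1 copies on other chromosomes, namely the pseudogenes Mt1-ps1, Mt1-ps3, Mt1-ps4 and Mt1m and the protein-coding Mt1f. Reads that fit several copies may be counted for another copy or for none, so the level of Mt1 is uncertain. Mt1m and the epithelial metallothionein Mt4 were listed at 0 in all 6 libraries.

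Mt1 and Mt2A put the 6 rats in the same order, with sham replicate 3 lowest and I/R replicate 3 highest. Mt1 gave 8.21% of the Mt1 and Mt2A fragments in sham replicate 1 (exact 95% interval 4.76 to 13.0%), 1.56% in sham replicate 2 (0.190 to 5.53%) and 0 of 65 fragments in sham replicate 3, where the exact interval reaches 5.52% and a limit of 3 fragments is 4.62%. In I/R the shares were 1.32, 1.06 and 0.805%. Sham replicate 1 stood apart, while the intervals of the other 2 sham rats covered the I/R shares. The difference between the groups in this share had an exact permutation p of 0.7. The log2 difference of Mt1 and Mt2A within a library was -4.65 ± 0.89 in sham and -6.80 ± 0.38 in I/R (exact permutation p = 0.1). Its change from sham to I/R was -2.15, against -3.68 at a pseudocount of 1 and -0.76 at 0.01. Whether the balance of the pair differed could therefore not be settled at this depth, and these intervals cover counting error only.

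Mt3, a metallothionein best known from the brain, did not follow the other 2. The Mt3 row (ENSRNOG00000018958) was at 3.35, 1.55 and 2.11 FPKM in sham and at 1.66, 2.43 and 2.22 FPKM in I/R, from 23 to 53 fragments in a library. The groups overlapped fully. The log2 fold change was -0.09 (SE 0.30, 95% interval -0.76 to 0.58, limma adjusted p = 0.83), an interval that holds differences in either direction. Relative to the median of all genes tested it was -0.34 with overlap (exact permutation p = 0.4), and after rescaling over genes other than mitochondrial mRNAs it was -0.84 (limma adjusted p = 0.057). Relative to the cardiomyocyte markers Mt3 was 2.39 lower on the log2 scale in I/R, with no overlap (exact permutation p = 0.1). Most genes were lower against that reference, with a median of -2.01 and 8977 of 10942 called lower by limma. After the rescaling over non-mitochondrial genes the median was -0.46. The 6 glia and nerve markers summed to 1.45 to 3.77 FPKM in sham and 3.23 to 6.06 FPKM in I/R, and limma called 0 of the 4 tested (1 higher at an unadjusted p under 0.05, 0 in limma voom).

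Mtf1 encodes the sensor of the pathway and was expressed at a low level in each library. The Mtf1 row (ENSRNOG00000025724) was at 0.241, 0.322 and 0.279 FPKM in sham and at 0.707, 0.569 and 0.619 FPKM in I/R, from 54 to 138 fragments. Every I/R value was above every sham value, which held for 37.2% of all genes tested. The means were 0.281 ± 0.040 and 0.631 ± 0.070 FPKM (SD, n = 3), a 2.25-fold ratio and a log2 difference of 0.94 with the pseudocount (exact permutation p = 0.1). The mean of 0.456 FPKM left Mtf1 just under the filter. Without a filter, the limma adjusted p was 0.0628. With the filter lowered to 0.25, chosen after seeing the data, the limma adjusted p was 0.0502, where 22.6% of genes were called higher. With limma voom on the recovered fragments at that filter, also added later, the log2 fold change was 1.16 and the adjusted p was 0.0208, where 23.8% were called higher.

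The sign of the Mtf1 difference depended on the reference. It was 0.69 relative to the library median of all genes tested and 0.31 when the libraries were scaled on their non-mitochondrial genes, where sham replicate 2 and I/R replicate 2 crossed. Relative to the cardiomyocyte markers it was -1.35, where the median of all genes tested was -2.01.

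Slc39a14 (ZIP14), a plasma membrane importer of zinc, iron and manganese, was the more abundant of the transporter pair. The Slc39a14 row (ENSRNOG00000009832) was at 3.87, 4.19 and 2.10 FPKM in sham and at 5.22, 5.38 and 5.95 FPKM in I/R. The groups did not overlap, the I/R rats lay close together and sham replicate 3 was lowest. The log2 fold change was 0.74 (SE 0.28, 95% interval 0.12 to 1.37) and missed the threshold (limma adjusted p = 0.066). It passed after rescaling to TPM (0.94, limma adjusted p = 0.033), where 3449 of the 10942 genes were called higher and the median was 0.48. It also passed in limma voom on the recovered fragments (0.76, adjusted p = 0.0488), where 26.8% of genes were called higher. It did not pass in limma voom at a filter of 0.25 (adjusted p = 0.0512). Relative to the median of all genes tested it was 0.49, and sham replicate 1 lay above I/R replicate 1 (exact permutation p = 0.2). It was -0.023 after rescaling over genes other than mitochondrial mRNAs and -1.55 relative to the cardiomyocyte markers. The medians of all genes tested were -0.46 and -2.01 under those scalings. Groups did not overlap with I/R higher in 37.2% of all genes tested.

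Slc30a1 (ZnT1), the zinc exporter of the plasma membrane and a classic MTF-1 target, overlapped between the groups. The Slc30a1 row (ENSRNOG00000004749) was at 0.599, 1.10 and 0.823 FPKM in sham and at 1.56, 0.747 and 0.989 FPKM in I/R, from 66 to 150 fragments. The highest value was in I/R replicate 1 and the lowest in sham replicate 1. The log2 fold change was 0.33 (SE 0.34, 95% interval -0.44 to 1.09, limma adjusted p = 0.49), which was close to the median of all genes. Relative to the median of all genes tested it was 0.08 with overlap (exact permutation p = 0.9). Relative to the cardiomyocyte markers Slc30a1 was at -1.97, where the median of all genes tested was -2.01.

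The importer and exporter were also set against each other within each library, where no scaling of the library enters. The log2 difference of Slc39a14 and Slc30a1 was 1.87 ± 0.63 in sham and 2.28 ± 0.53 in I/R (SD, n = 3). The difference of 0.41 did not exceed the spread between rats (exact permutation p = 0.5).

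**Figure D3:**
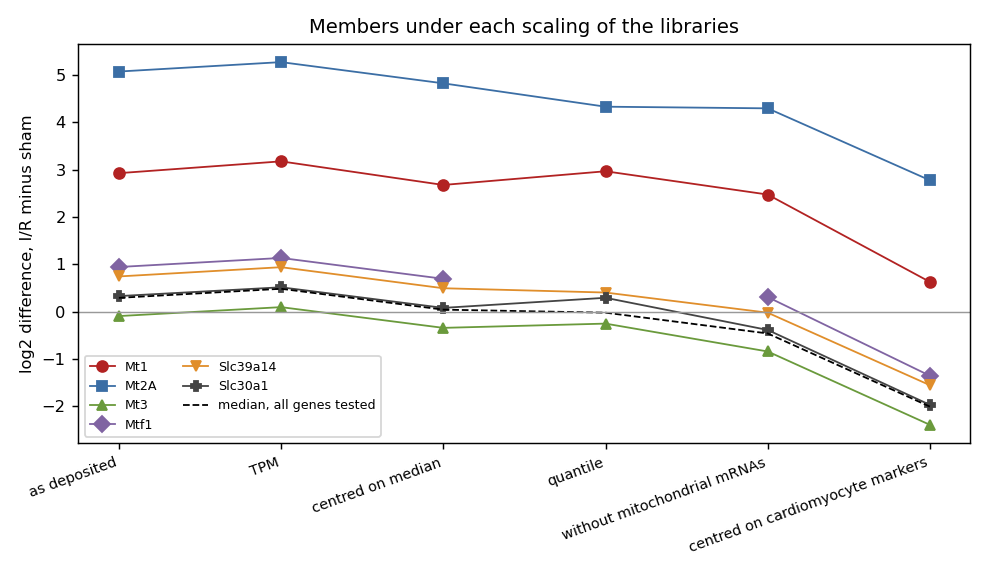
Log2 difference between I/R and sham for each of the 6 genes (vertical axis) under 6 scalings of the libraries, with the median of all genes tested as a dashed line. Quantile normalization gave no value for Mtf1. Mt2A stayed between 2.77 and 5.27, while Slc39a14 and Slc30a1 went from above 0 to below 0, as did the median of all genes tested.

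The wider zinc transporter families showed smaller differences than Mt2A. All 14 ZIP genes of the list were in the table and 10 were tested, of which 3 were called higher (30.0%, against 25.5% of all genes) and 0 lower. The median log2 fold change of the list was 0.59, against 0.29 for all genes tested. Slc39a1, the ubiquitous plasma membrane importer ZIP1, was at 6.10, 7.89 and 7.79 FPKM in sham and at 15.2, 14.4 and 14.3 FPKM in I/R, with a log2 fold change of 1.01 (limma adjusted p = 0.0082). Slc39a13, which encodes ZIP13 of the secretory pathway, rose by 0.83 (limma adjusted p = 0.028). Slc39a5 rose by 0.90 (limma adjusted p = 0.029). None of these 3 overlapped between the groups, and 37.2% of all genes tested did not overlap with I/R higher.

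Of the other ZIP genes tested, Slc39a6 had a log2 fold change of 0.80 (limma adjusted p = 0.071) and Slc39a9 had 0.43 (limma adjusted p = 0.203). Neither overlapped between the groups, which held with I/R higher for 37.2% of all genes tested. Slc39a11, Slc39a10, Slc39a3 and Slc39a8 lay between -0.15 and 0.32. Slc39a7 and Slc39a12 were listed at 0 in every library, Slc39a2 and Slc39a4 were under the filter, and none of the 4 was tested. The count of ZIP genes called higher was 1 without sham replicate 3 and 1 without I/R replicate 1. It was 0 after rescaling over genes other than mitochondrial mRNAs, and 0 with 8 called lower relative to the cardiomyocyte markers. Of all 10942 genes, 793 were called higher after that rescaling. Relative to the cardiomyocyte markers, 35 of them were called higher and 8977 lower.

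Of the 10 ZnT genes, 7 were tested, 1 was called higher (14.3%, against 25.5% of all genes) and 0 lower. The median log2 fold change was 0.33, against 0.29 for all genes. Slc30a3, a vesicular zinc transporter best known from synapses, was at 1.71, 2.28 and 1.26 FPKM in sham and at 2.20, 4.41 and 3.93 FPKM in I/R. Its log2 fold change was 0.94 (limma adjusted p = 0.044), though I/R replicate 1 lay below sham replicate 2. No ZnT gene was called higher in 5 of the 6 limma fits that left out a rat, and 1 was without I/R replicate 1. At an unadjusted p under 0.05, 2 of the 7 ZnT genes were higher with all rats, where 33.7% of all genes were. Slc30a5, Slc30a4, Slc30a7, Slc30a9 and Slc30a6 had log2 fold changes between -0.36 and 0.59 and were not called. Among them only Slc30a5 did not overlap between the groups, against 37.2% of all genes tested with I/R higher.

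**Figure D4:**
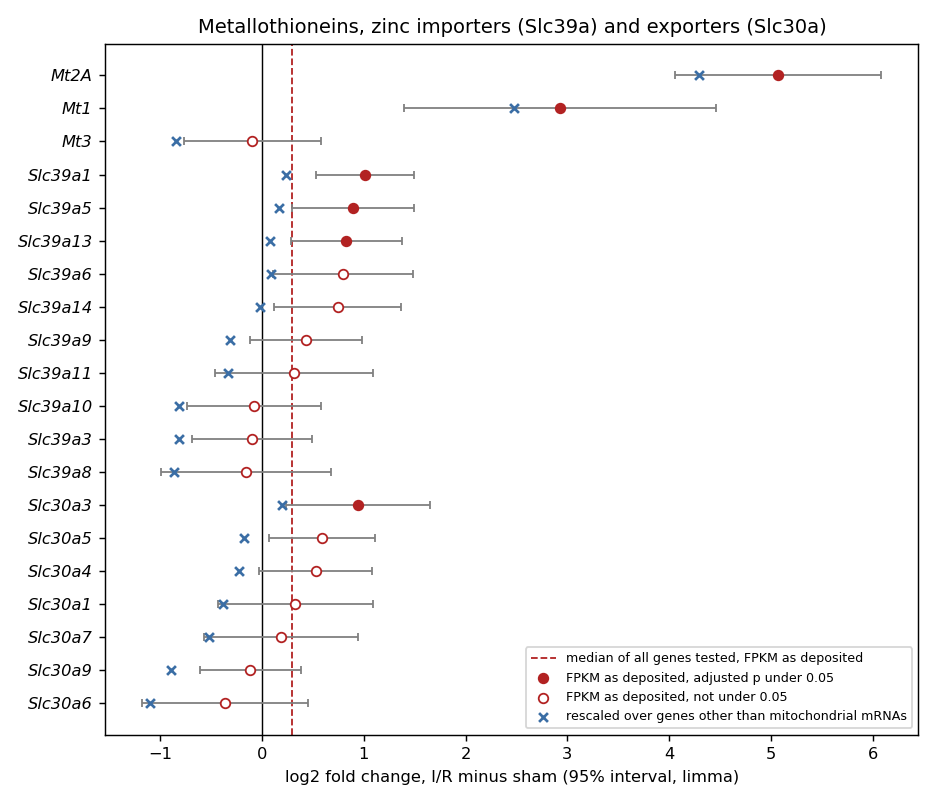
Log2 fold change (horizontal axis, I/R minus sham) of the metallothioneins and of the ZIP and ZnT genes tested, with 95% limma intervals. Filled points passed an adjusted p under 0.05, crosses give the value rescaled over genes other than mitochondrial mRNAs, and the dashed line is the median of all genes. Mt2A at 5.07 and Mt1 at 2.92 lay beyond every transporter, the highest of which was Slc39a1 at 1.01.

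Copper handling genes were counted because metallothioneins also bind copper. Of 12 listed, 9 were tested, 3 were called higher (33.3%, against 25.5% of all genes) and 0 lower, with a median log2 fold change of 0.82, against 0.29. Sco1, a copper chaperone of cytochrome c oxidase, rose by 1.34 (limma adjusted p = 0.0078). Steap3, a metalloreductase, rose by 0.98 (limma adjusted p = 0.017), and the copper importer Slc31a1 rose by 0.88 (limma adjusted p = 0.012). None of these 3 was called after rescaling over genes other than mitochondrial mRNAs.

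Other known targets of MTF-1 or of metal stress were called higher in 4 of the 5 tested and lower in 0, with a median log2 fold change of 1.26, against 25.5% called higher and a median of 0.29 over all genes. Hmox1, the stress-inducible heme oxygenase, was at 4.50, 3.97 and 3.02 FPKM in sham and at 13.5, 23.9 and 25.0 FPKM in I/R, with a log2 fold change of 2.38 (limma adjusted p = 0.0016). Pgf, the placental growth factor, was at 1.94, 3.25 and 1.58 FPKM in sham and at 6.57, 19.6 and 8.97 FPKM in I/R, with a log2 fold change of 2.23 (limma adjusted p = 0.0049). Gclc, which makes glutathione precursors, rose by 1.26 (limma adjusted p = 0.0115). Hmox1 and Pgf were still called after rescaling over genes other than mitochondrial mRNAs, at 1.60 and 1.47, and lay at 0.08 and -0.06 relative to the cardiomyocyte markers. Fth1, the ferritin heavy chain, was the fourth at 1.01, and was -0.41 after quantile normalization. The tested gene not called was Ndrg1 (-0.18), which was called lower after rescaling over genes other than mitochondrial mRNAs (-0.96). Selenow, under the filter, had means of 0.473 FPKM in sham and 0.228 FPKM in I/R. This list was chosen with earlier results of these data known.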

How the data were processed

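The authors deposited 1 table of FPKM values for 3 sham and 3 I/R libraries, 30452 rows of which 7092 had no symbol. The submitters' processing notes name STAR and HTSeq. Versions, genome build and annotation are not given in the sources used here. Rows with the same symbol were summed, to 28293 genes.

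Log2(FPKM + 0.1) was compared for 10942 genes, those whose mean FPKM reached 0.5, with limma 3.58.1 in R 4.3.3 (eBayes with trend) and Benjamini-Hochberg adjustment at 0.05. The pseudocount understates the change of low genes. The methods state no test for single genes. Single values were compared by exact permutation over the 6 samples, whose smallest two-sided p is 0.1. The fit was tested on simulated data.

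Fragments were recovered from the deposited FPKM values after seeing the data, where 99.96% of rows tested gave whole fragments in all samples within 0.02, for 36848184 to 49848438 fragments a library. Same-numbered sham and I/R samples deviated together (correlations 0.203, 0.117 and 0.118), and so did sham replicate 3 and I/R replicate 2 (0.120). The numbers come from the labels, and the block was an alternative. Of 21 alternative fits, 3 were added after seeing the data.

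The members and gene lists were chosen with earlier results of these data known. Named in the text are all members, the tested genes of the ZIP, ZnT and other metallothionein lists, up to 3 called genes in each direction of the copper and metal response lists, and the 3 genes most correlated with each tested member. Cell type markers, Fth1, Ndrg1 and genes under the filter or listed at 0 were named after their values were seen.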

Additional observations from a re-analysis of the deposited data

How the results depend on the processing

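Mt2A kept its direction and its call in all 21 alternative fits, from 2.77 to 5.46 (4.65 to 5.46 when 1 rat was left out). Mt1 was not called when centred on the cardiomyocyte markers (0.63) or without sham replicate 2 (2.69, limma adjusted p = 0.0545). It ranged from 2.25 to 3.83 with 1 rat left out. Mt3 turned to 0.095 under TPM, was -0.84 over non-mitochondrial genes (not called), was called at -2.39 when centred on the cardiomyocyte markers, and ranged from -0.34 to 0.19 with 1 rat left out (0.19 without sham replicate 1 and 0.06 without I/R replicate 1). Slc39a14 was called under TPM (0.94) and in limma voom (0.76, but not at a filter of 0.25, adjusted p = 0.0512), was -0.023 over non-mitochondrial genes and -1.55 centred on the cardiomyocyte markers, and ranged from 0.44 to 0.92. Slc30a1 was -0.39 and -1.97 under those 2 scalings and ranged from 0.07 to 0.55, and relative to the median of all genes it ranged from -0.11 (without I/R replicate 1) to 0.27, with -0.08 without sham replicate 1. Mtf1 was 0.35 at a pseudocount of 1, 1.14 at 0.01, 1.13 under TPM, 0.69 centred on the median, 0.31 over non-mitochondrial genes, -1.35 centred on the cardiomyocyte markers and 1.16 in limma voom at a filter of 0.25, and ranged from 0.87 to 1.02. The change from sham to I/R in the log2 difference of Mt1 and Mt2A was -2.15. It moved to -3.68 at a pseudocount of 1 and -0.76 at 0.01, and ranged from -2.40 to -1.64. The cause of these shifts was not tested.

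Counts of genes called moved with the scaling. Of all genes, 2790 were higher and 805 lower; the higher count was 1441 under quantile normalization, 793 over non-mitochondrial genes, 35 centred on the cardiomyocyte markers and 1528 (without sham replicate 3) to 2557 with 1 rat left out. The lower count was 166 at a filter of 5, 504 under TPM, 1554 centred on the median, 1559 under quantile normalization, 2857 over non-mitochondrial genes, 8977 centred on the cardiomyocyte markers and 309 (without sham replicate 2) to 881. The share of calls that were higher was 77.6%, against 87.3% under TPM, 91.9% at a filter of 5, 56.5% centred on the median, 48.0% under quantile normalization, 21.7% over non-mitochondrial genes and 0.388% centred on the cardiomyocyte markers. Over all genes, the log2 fold changes had medians of 0.48, 0.66, 0.04, -0.02, -0.46 and -2.01 in that order. ZIP genes called higher numbered 1 without a filter, 1 at a filter of 5, 5 under TPM, 0 over non-mitochondrial genes and 0 centred on the cardiomyocyte markers (8 lower), and 1 to 3 with 1 rat left out. ZnT genes called higher numbered 2 under TPM, 0 to 1 with 1 rat left out, and 0 without a filter, at a filter of 5, without the trend, and under the other 4 scalings; those called lower numbered 1 under quantile normalization, 2 over non-mitochondrial genes, 7 centred on the cardiomyocyte markers and 0 to 1. Copper genes called higher numbered 1 at a filter of 5, 0 over non-mitochondrial genes, 0 centred on the cardiomyocyte markers and 2 to 4, and those lower 1, 6 and 0 to 1 under the last 3. Metal response genes called higher numbered 2 over non-mitochondrial genes, 0 centred on the cardiomyocyte markers and 3 to 4, and those lower 1 and 2 under those scalings.

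With the replicate block, 3085 genes were higher and 895 lower, Slc39a14 had a limma adjusted p of 0.056, and the block changed no call of a member. Mt1, Mt3, Slc39a14 and Slc30a1 could not be tested at a filter of 5, and Mtf1 gave no value under quantile normalization. Depth limits Mt1 most, with 0 to 43 fragments a library, so that its sham level is known only within wide counting intervals.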

Other observations

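The genes whose levels followed the members most closely over the 6 libraries are given as a description, with Pearson's r of log2(FPKM + 0.1). Both groups enter each r, the libraries share the scalings described above, and no test was made. RGD1564664 (r = 0.999), Zc3h12a (0.997), an RNase that degrades inflammatory mRNAs, and Bok (0.996), of the BCL-2 family, were the most like Mt2A, and 298 genes had an r above 0.95 with it. Pxmp2, Anapc13 and Svip were the most like Mt1 (0.995 to 0.996), with 276 genes above 0.95. Sox17, an endothelial transcription factor, was the most like Slc39a14 (r = 0.997), followed by Pitpnm2 and Sgms1, with 54 genes above 0.95. Gfus, Dph2 and Lrp1 were the most like Slc30a1 (0.993 to 0.996), with 61 genes above 0.95. Mt3 had 2 genes above 0.95, Y_RNA and AY172581.19, and Fgd2 came next at 0.944.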
